A study of Rattus norvegicus with 78 samples.

Results

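The 27 genes described here belong to the family of ubiquitin-conjugating enzymes and were read in RNA of rat sperm. They were chosen by symbol alone: every gene symbol of the array's annotation that starts with Ube2 was taken, on probe sets with 1 symbol, and each gene was read by its probe set of highest mean over all 78 arrays. They are 27 of the 14506 genes that the array names in this way, and they lie on 29 probe sets, of which Ube2n has 3. All 27 matched a RefSeq gene of the same symbol by Entrez identifier. RefSeq holds 45 protein-coding rat genes with such symbols, so 18 of them, such as Ube2h, were not analysed here, and 1 probe set that carries Ube2m together with another gene was left out.

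Ubiquitin is passed from an activating enzyme (E1) to a conjugating enzyme (E2) and then, with the help of a ligase (E3), to a target protein, which may be marked for the proteasome or given a new task. The E2 carries the modifier on a catalytic cysteine and shapes the kind of chain that is built, and relatives of these enzymes carry ubiquitin-like proteins such as NEDD8 and ISG15. Spermatids use this system as histones are replaced and cytoplasm is shed, and male mice that lack Ube2b or Ube2j1 are infertile.

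Sperm were let out of the punctured cauda epididymides of Fischer 344 rats, and each sample was read on 1 array. The groups were DBCP recovery (19 arrays; 5 mg/kg/day of DBCP, 1,2-dibromo-3-chloropropane, a soil fumigant toxic to male germ cells, for 3 months and then a recovery period), corn oil recovery (19 arrays; the vehicle for the same time and then recovery), DBCP (20 arrays, taken when exposure ended) and corn oil (20 arrays, likewise). Neither the rats' age nor the length of recovery is given in the labels. The labels call every sample a biological replicate and name sperm as the tissue, while the series title names testis.

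Values are log2 values per probe set as the authors deposited them, and array medians lay between 6.55 and 6.75. Of 20 genes of sperm and late spermatids, such as Prm1 and Akap4, 16 were above the array's median on all 78 arrays, against 1 of 7 Sertoli cell genes and 0 of 5 Leydig cell genes. The same held for 5 of 13 genes of epididymal epithelium, 4 of 11 of stroma and 3 of 6 of erythrocytes. Of 22 leukocyte genes, such as Ptprc and Cd74, 14 were above the median on all arrays. Among the 27 members, 15 were above the array's median on all arrays and 3 (Ube2a, Ube2l6 and Ube2v2) were below it on all arrays. The share of all probe sets above it on all arrays was not counted, and the median is not a limit of detection. A group of 6 arrays had a limma array weight under 0.5, namely replicates 2, 13 and 20 of DBCP, 7 and 15 of DBCP recovery and 11 of corn oil recovery.

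The first question was whether DBCP changed these transcripts. With limma and Benjamini-Hochberg adjustment over all 29214 probe sets, no member passed an adjusted p of 0.05 at the end of exposure (0 of 27) or after recovery (0 of 27), where 0% of all probe sets passed. At an unadjusted p under 0.05 there were 12 members at the end of exposure, against 11.6% of all probe sets, and 0 after recovery, against 3.71%. At the end of exposure 22 members had a difference above 0 and 5 below, with a median of 0.13 on the log2 scale against -0.02 over all probe sets. After recovery 11 were above and 16 below, with a median of -0.02 against 0.01.

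The 5 members of smallest p at the end of exposure were Ube2j1, Ube2f, Ube2g2, Ube2e2 and Ube2l3. Their log2 differences of DBCP minus corn oil were 0.60 ± 0.15 (SE), 0.28 ± 0.09, 0.39 ± 0.14, 0.16 ± 0.07 and 0.17 ± 0.07. The adjusted p of Ube2j1 was 0.12 and that of the other 4 lay between 0.172 and 0.295. The sperm marker level, the mean log2 value of the 20 sperm genes on an array, differed the same way, by 0.31 between DBCP and corn oil rats. The level of 13 epididymal epithelium genes also differed that way, by 0.12. The leukocyte level differed by -0.14 and the level of 6 erythrocyte genes by -0.19. None of the genes of these lists passed. With the sperm and leukocyte levels as covariates, a fit chosen after the data were seen, the difference was 0.19 for Ube2j1, 0.17 for Ube2f, 0.04 for Ube2g2, 0.15 for Ube2e2 and 0.21 for Ube2l3, and 9 members had an unadjusted p under 0.05, against 8.65% of all probe sets. Without the 6 arrays of low weight 2 members did, against 4.53%, and the difference was 0.43 for Ube2j1, 0.15 for Ube2g2 and 0.16 for Ube2f. Within replicates 1 to 10 alone 2 members did, and within replicates 11 to 20 alone 10 did. The share of all probe sets at that p was not counted in these 2 sets. The differences in the 2 sets were 0.46 and 0.75 for Ube2j1, 0.15 and 0.40 for Ube2f and 0.18 and 0.59 for Ube2g2. They were 0.04 and 0.29 for Ube2e2 and 0.07 and 0.27 for Ube2l3.

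After recovery the 5 members of smallest p were Ube2t, Ube2n, Ube2l6, Ube2v1 and Ube2q2l, with differences of 0.08 ± 0.05, -0.17 ± 0.11, 0.07 ± 0.05, -0.07 ± 0.06 and 0.06 ± 0.06. Their adjusted p was 0.983 each. The 95% interval of Ube2j1 after recovery ran from -0.29 to 0.33, so it held differences of either sign.

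The interaction asks whether the DBCP difference changed with recovery, and again 0 of 27 members and 0% of all probe sets passed. At an unadjusted p under 0.05 there were 6 members, against 10.9% of all probe sets. The smallest p-values belonged to Ube2n (-0.42 ± 0.15), Ube2f (-0.33 ± 0.12), Ube2j1 (-0.59 ± 0.22), Ube2l3 (-0.23 ± 0.10) and Ube2t (0.15 ± 0.07), each with an adjusted p of 0.454. The median over members was -0.16 against 0.03 over all probe sets.

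**Figure D1:**
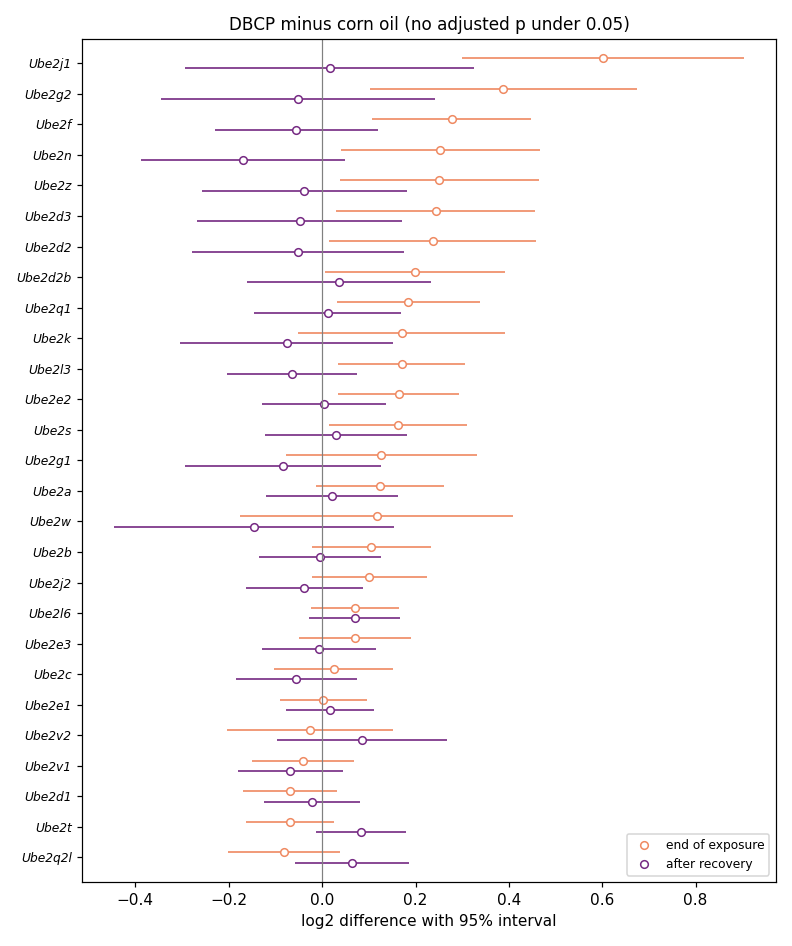
Log2 difference of DBCP minus corn oil for each of the 27 members, after exposure ended (orange) and following recovery (purple), with 95% intervals from the limma fit. Open circles mark an adjusted p of 0.05 or more, which holds for all 27 members at both times. At the end of exposure 22 members lie above 0, led by Ube2j1 at 0.60.

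The comparisons over time set recovery against the end of exposure within each treatment. In DBCP rats 1 member rose after recovery and 5 fell, against 7.28% and 6.19% of all probe sets, so the share that fell was above the background and the share that rose below it; in either direction 6 passed, against 13.5%. In corn oil rats 9 members rose and 4 fell, against 11.5% and 12.8% of all probe sets, so the share that rose was above the background and the share that fell was close to it; in either direction 13 passed, against 24.3%. At an unadjusted p under 0.05 there were 10 members in DBCP rats and 15 in corn oil rats, against 27.1% and 37.9% of all probe sets. The median over members was -0.05 in DBCP rats, against 0.01 over all probe sets, and 0.04 in corn oil rats, against -0.04.

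Ube2g1 rose and Ube2j1, Ube2d2b and Ube2l6 fell in both treatments. In DBCP rats Ube2g2 and Ube2n also fell, while in corn oil rats Ube2d2, Ube2d3, Ube2e3, Ube2f, Ube2l3, Ube2q1, Ube2w and Ube2z also rose and Ube2q2l fell. The other 12 members passed in neither. As no interaction passed, these lists do not show that the time differences themselves differed between treatments.

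Within replicates 1 to 10 alone 6 members passed in DBCP rats, against 10.4% of all probe sets, and 10 in corn oil rats, against 16.3%. Within replicates 11 to 20 alone 1 passed in DBCP rats, Ube2j1, at -0.93, against 1.73% of all probe sets, and 0 passed limma's test in corn oil rats, against 1.32%. At an unadjusted p under 0.05 there were 4 in these corn oil rats, against 20% of all probe sets. RNA of sperm preparations comes from many cells, so fewer cells of a type and less RNA per cell cannot be told apart. The sperm marker level was lower after recovery by 0.67 on the log2 scale in DBCP rats and by 0.34 in corn oil rats, with 16 and 10 of its 20 genes falling. The leukocyte marker level was higher by 0.36 and 0.37, with 17 and 15 of its 22 genes rising and 1 falling in corn oil rats. Collection time and any batch of processing that went with it cannot be told apart from recovery.

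**Figure D2:**
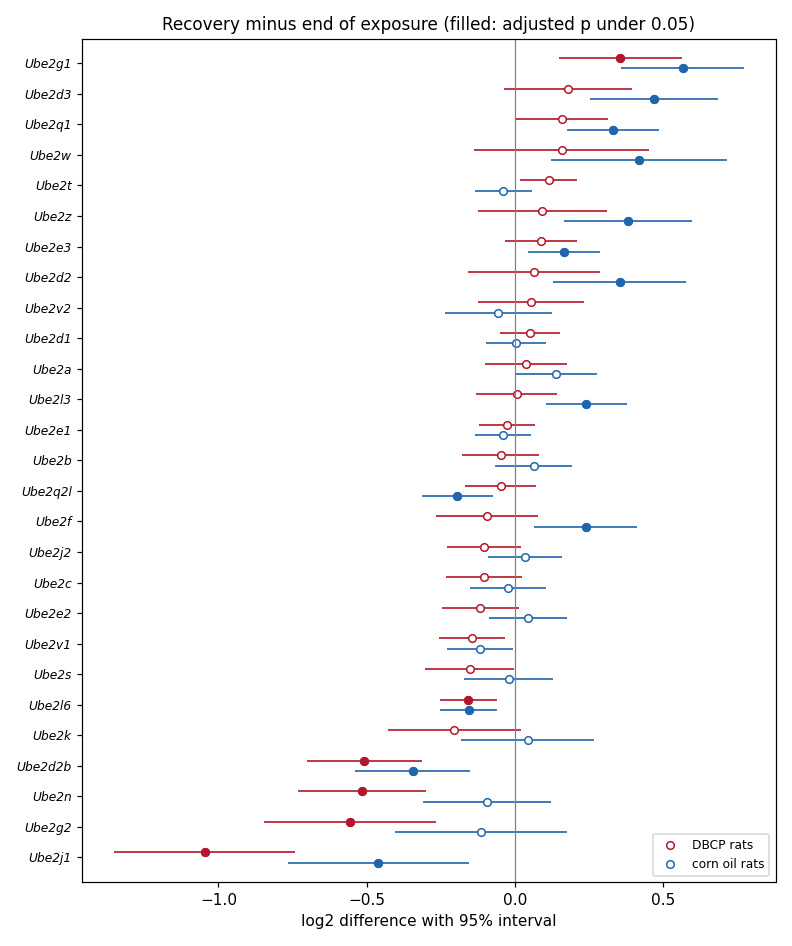
Log2 difference of recovery minus end of exposure for the 27 members in DBCP rats (red) and corn oil rats (blue), with 95% intervals from the limma fit. Filled circles have an adjusted p under 0.05: 6 members in DBCP rats and 13 in corn oil rats. Ube2j1 lies lowest in both treatments, and Ube2g1 highest.

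The promoters of the 4 members that passed in the same direction in both treatments are shown, because they are the genes on which both time comparisons met. Each is 300 bases of RefSeq sequence of the build GRCr8, from 250 bases before a start of the gene in RefSeq to 50 after it, 5′ to 3′ on the gene's own strand: Ube2j1 at chr5:52218557-52218856 (plus strand), Ube2d2b at chr14:2062351-2062650 (minus), Ube2l6 at chr3:90279455-90279754 (plus) and Ube2g1 at chr10:57724258-57724557 (plus). That start is the first base of the annotated gene in Ube2j1, Ube2d2b and Ube2l6, and lies 848 bases inside the annotated gene in Ube2g1. Capitals mark 3 motifs on either strand: TGACG, the core of the cyclic AMP response element, CCAAT, and GGGCGG, the GC box.
Ube2j1: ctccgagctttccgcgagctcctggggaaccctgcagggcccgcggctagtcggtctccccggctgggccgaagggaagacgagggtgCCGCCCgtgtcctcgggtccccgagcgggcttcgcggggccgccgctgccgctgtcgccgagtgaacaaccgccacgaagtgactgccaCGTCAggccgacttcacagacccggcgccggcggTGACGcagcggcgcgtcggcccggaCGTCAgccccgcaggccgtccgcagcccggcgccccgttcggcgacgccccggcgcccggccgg
Ube2d2b: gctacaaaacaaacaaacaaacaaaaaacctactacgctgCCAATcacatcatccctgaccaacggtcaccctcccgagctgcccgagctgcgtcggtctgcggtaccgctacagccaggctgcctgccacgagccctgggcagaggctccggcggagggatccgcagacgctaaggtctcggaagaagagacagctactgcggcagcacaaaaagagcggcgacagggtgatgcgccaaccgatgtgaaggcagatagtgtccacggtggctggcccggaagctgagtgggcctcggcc
Ube2l6: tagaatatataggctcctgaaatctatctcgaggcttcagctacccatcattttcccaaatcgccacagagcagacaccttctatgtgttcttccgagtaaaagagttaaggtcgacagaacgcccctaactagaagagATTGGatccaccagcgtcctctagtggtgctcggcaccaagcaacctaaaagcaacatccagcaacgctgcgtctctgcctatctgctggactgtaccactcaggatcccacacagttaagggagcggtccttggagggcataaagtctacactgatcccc
Ube2g1: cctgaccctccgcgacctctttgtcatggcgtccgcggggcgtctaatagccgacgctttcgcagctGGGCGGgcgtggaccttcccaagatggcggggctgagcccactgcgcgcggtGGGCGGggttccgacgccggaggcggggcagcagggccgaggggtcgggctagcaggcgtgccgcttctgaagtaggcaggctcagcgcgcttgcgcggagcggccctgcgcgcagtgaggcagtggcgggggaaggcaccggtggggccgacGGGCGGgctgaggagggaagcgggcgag

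The Ube2j1 window held TGACG 3 times and a GC box once, and 77.0% of its bases were G or C. In Ube2d2b and Ube2l6 the only match was 1 CCAAT, with 61.0% G or C in Ube2d2b. The Ube2g1 window held 3 GC boxes, at 73.7%. The table of promoters had an entry for 23 members and not for Ube2c, Ube2e1, Ube2v2 and Ube2w. TGACG was in 11 of the 23 (47.8%), against 21.2% of 33469 promoters of the same length, and the longer TGACGTCA, which contains it, in 0 of 23, against 1.8%. CCAAT was in 8 (34.8%, against 37.5%) and the GC box in 16 (69.6%, against 33.1%). Members were counted by gene and the background by promoter. The 33469 promoters were not matched to the members for type of gene or share of G or C. These matches describe letters and were not tied to the array values.

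Among the E2s of degradation at the endoplasmic reticulum, Ube2j1 had the largest difference of any member over time in DBCP rats and the largest fall in corn oil rats. It is anchored in the membrane of the endoplasmic reticulum and helps to send misfolded proteins to the proteasome. Its values were 8.32 to 9.65 (median 8.87) in DBCP recovery rats, 8.28 to 9.37 (median 8.90) in corn oil recovery rats, 8.95 to 11.26 (median 9.88) in DBCP rats and 8.00 to 10.31 (median 9.31) in corn oil rats. All 19 DBCP recovery arrays lay below the DBCP mean, and 17 of 19 corn oil recovery arrays below the corn oil mean, while the ranges of the groups overlapped. Ube2j1 fell by 1.05 ± 0.15 in DBCP rats (2.07-fold lower, limma adjusted p = 5.7e-07) and by 0.46 ± 0.15 in corn oil rats (1.38-fold lower, adjusted p = 0.0217). The highest DBCP arrays were replicates 13 at 11.26 and 2 at 10.91, both of low array weight, and without the 6 such arrays the differences were -0.96 and -0.49, both past the threshold.

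Ube2g2, a soluble E2 that works with ligases of the endoplasmic reticulum membrane, had values of 7.21 to 8.71 (median 7.45) in DBCP recovery rats, 7.14 to 8.09 (median 7.64) in corn oil recovery rats, 7.11 to 9.89 (median 7.98) in DBCP rats and 6.91 to 8.59 (median 7.77) in corn oil rats. The DBCP arrays spread widest, up to 9.89, and 17 of 19 DBCP recovery arrays lay below the DBCP mean. Ube2g2 fell by 0.56 ± 0.15 in DBCP rats (adjusted p = 0.00491) and stood at -0.12 ± 0.15 in corn oil rats (adjusted p = 0.586).

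Ube2g1, a related E2 that builds ubiquitin chains for proteasomal degradation, moved the other way. Its values were 7.03 to 8.67 (median 7.80) in DBCP recovery rats, 7.44 to 8.39 (median 7.90) in corn oil recovery rats, 6.77 to 8.19 (median 7.46) in DBCP rats and 6.64 to 8.29 (median 7.33) in corn oil rats. In DBCP rats 18 of 19 recovery arrays were above the DBCP mean and in corn oil rats all 19 above the corn oil mean, with overlapping ranges. The rise was 0.35 ± 0.10 in DBCP rats (1.28-fold, adjusted p = 0.0134) and 0.57 ± 0.10 in corn oil rats (1.48-fold, adjusted p = 5.49e-05). Ube2j2, the other membrane-anchored E2 of this group, passed in neither comparison, at -0.10 ± 0.06 and 0.04 ± 0.06.

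**Figure D3:**
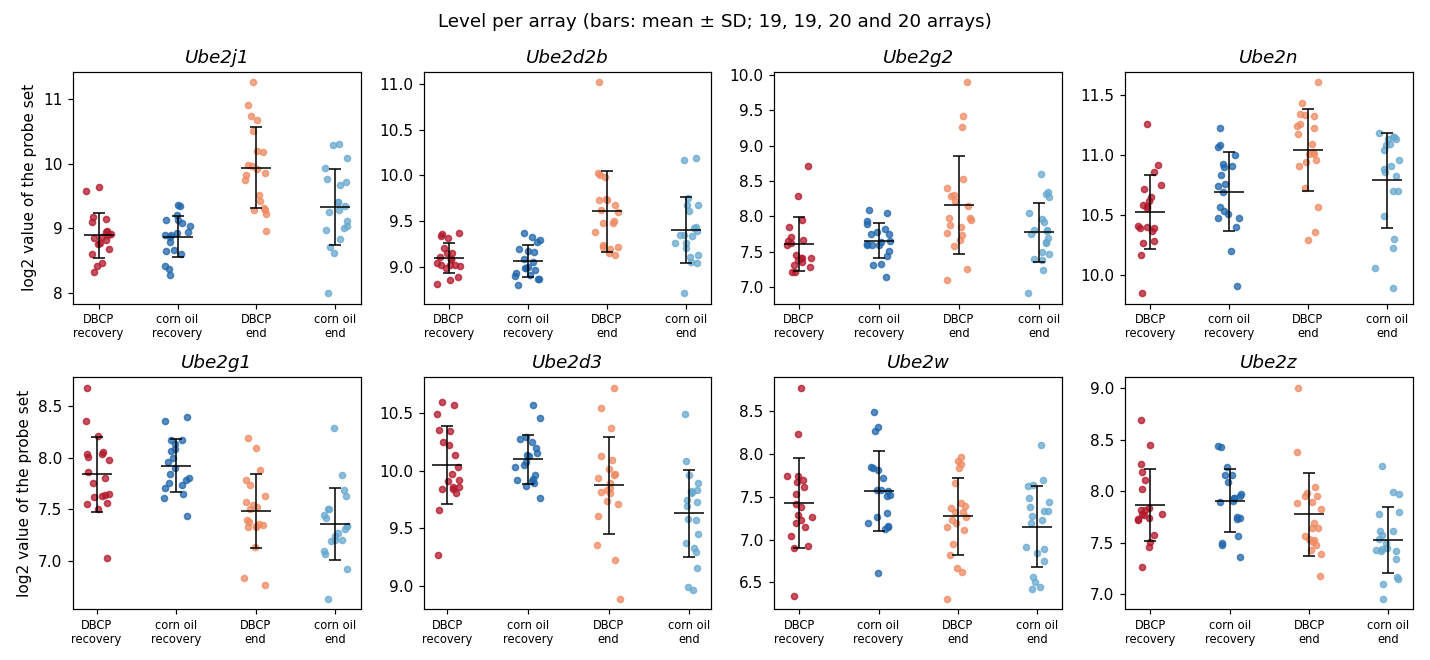
Log2 value of 8 members on each array, by group (points), with the group mean and SD (bars), for 19, 19, 20 and 20 arrays. Ube2j1, Ube2d2b, Ube2g2 and Ube2n (top) are lower after recovery in DBCP rats, and Ube2g1, Ube2d3, Ube2w and Ube2z (bottom) are higher after recovery in corn oil rats.

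The D and E families are E2s of broad use that work with many ligases. The D proteins are near-identical, so a probe set of one gene may also read its copies. Ube2d2b, a copy of Ube2d2 described in rat testis, had values of 8.82 to 9.37 (median 9.08) in DBCP recovery rats, 8.80 to 9.38 (median 9.00) in corn oil recovery rats, 9.13 to 11.01 (median 9.55) in DBCP rats and 8.71 to 10.19 (median 9.35) in corn oil rats. All recovery arrays of both treatments lay below the mean at the end of exposure of their own treatment, 19 of 19 in each, though the ranges overlapped. It fell by 0.51 ± 0.10 in DBCP rats (1.42-fold lower, adjusted p = 9.5e-05) and by 0.34 ± 0.10 in corn oil rats (1.27-fold lower, adjusted p = 0.00721).

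Ube2d2 and Ube2d3 went the opposite way to Ube2d2b in corn oil rats. Ube2d2 values were 10.29 to 11.59 (median 11.02) in DBCP recovery rats, 10.74 to 11.53 (median 11.11) in corn oil recovery rats, 10.00 to 11.85 (median 11.07) in DBCP rats and 10.00 to 11.66 (median 10.93) in corn oil rats. Those of Ube2d3 were 9.26 to 10.60 (median 9.97) in DBCP recovery rats, 9.77 to 10.57 (median 10.08) in corn oil recovery rats, 8.89 to 10.72 (median 9.87) in DBCP rats and 8.96 to 10.49 (median 9.71) in corn oil rats. In both genes the corn oil arrays had the lowest median, and 18 of 19 (Ube2d2) and 19 of 19 (Ube2d3) corn oil recovery arrays were above the corn oil mean. The differences of Ube2d2 and Ube2d3 in DBCP rats were 0.06 ± 0.11 and 0.18 ± 0.11, while in corn oil rats Ube2d2 rose by 0.35 ± 0.11 (adjusted p = 0.0166) and Ube2d3 by 0.47 ± 0.11 (adjusted p = 0.00102).

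Ube2e3 stood at 0.09 ± 0.06 in DBCP rats and rose by 0.16 ± 0.06 in corn oil rats (adjusted p = 0.0392). Ube2e2, which was among the members of smallest p for DBCP, had values of 7.73 to 8.63 (median 7.96) in DBCP recovery rats, 7.70 to 8.50 (median 8.01) in corn oil recovery rats, 7.72 to 8.61 (median 8.11) in DBCP rats and 7.71 to 8.34 (median 7.99) in corn oil rats. The groups overlapped over most of their range, with 16 of 20 DBCP arrays above the corn oil mean. Ube2d1 and Ube2e1 passed nowhere, with time differences of 0.05 ± 0.05 and -0.03 ± 0.05 in DBCP rats and 0.00 ± 0.05 and -0.04 ± 0.05 in corn oil rats.

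Ube2n pairs with a catalytically inactive partner, Ube2v1 or Ube2v2, to build the chains that serve in DNA repair and immune signalling rather than in degradation. Its values were 9.85 to 11.26 (median 10.56) in DBCP recovery rats, 9.91 to 11.23 (median 10.75) in corn oil recovery rats, 10.30 to 11.61 (median 11.06) in DBCP rats and 9.90 to 11.18 (median 10.90) in corn oil rats. In DBCP rats 18 of 19 recovery arrays lay below the mean at the end of exposure. Ube2n fell by 0.52 ± 0.11 in DBCP rats (1.43-fold lower, adjusted p = 3.68e-04), and its other 2 probe sets fell by 0.47 ± 0.10 and 0.32 ± 0.07 there. The difference in corn oil rats was -0.09 ± 0.11.

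The partners did not pass. Ube2v1 had values of 9.06 to 9.69 (median 9.42) in DBCP recovery rats, 9.15 to 9.74 (median 9.51) in corn oil recovery rats, 9.14 to 9.96 (median 9.60) in DBCP rats and 9.24 to 9.99 (median 9.60) in corn oil rats, and its groups overlapped almost fully. Its time differences were -0.14 ± 0.06 in DBCP rats (adjusted p = 0.0715) and -0.12 ± 0.06 in corn oil rats (adjusted p = 0.111). Ube2v2, below the array's median everywhere, stood at 0.05 ± 0.09 and -0.06 ± 0.09.

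The E2s of histones and DNA damage include Ube2a and Ube2b, near-identical proteins that attach ubiquitin to histone H2B and, with the ligase Rad18, to the replication clamp. Ube2b is the one that male mice need for sperm formation. Ube2b values were 6.70 to 7.39 (median 6.97) in DBCP recovery rats, 6.70 to 7.41 (median 7.00) in corn oil recovery rats, 6.67 to 7.51 (median 7.06) in DBCP rats and 6.68 to 7.47 (median 6.95) in corn oil rats. Those of Ube2a were 5.33 to 6.46 (median 5.90) in DBCP recovery rats, 5.55 to 6.42 (median 5.84) in corn oil recovery rats, 5.54 to 6.19 (median 5.85) in DBCP rats and 5.42 to 6.10 (median 5.75) in corn oil rats. The 4 groups overlapped almost fully in both genes, and Ube2a was below the median of every array.

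Neither gene passed in a comparison. DBCP minus corn oil was 0.11 ± 0.06 for Ube2b and 0.12 ± 0.07 for Ube2a in rats just exposed, and -0.01 ± 0.07 and 0.02 ± 0.07 after recovery. Recovery minus end of exposure was -0.05 ± 0.06 and 0.04 ± 0.07 in DBCP rats and 0.06 ± 0.06 and 0.14 ± 0.07 in corn oil rats. The 95% interval for Ube2b at the end of exposure was -0.02 to 0.23. Ube2t, an E2 of the Fanconi anaemia pathway of DNA cross-link repair, had values of 6.08 to 6.76 (median 6.37) in DBCP recovery rats, 6.01 to 6.57 (median 6.32) in corn oil recovery rats, 5.93 to 6.50 (median 6.27) in DBCP rats and 6.12 to 6.64 (median 6.34) in corn oil rats. Its groups overlapped too, and its DBCP difference was -0.07 ± 0.05 when exposure ended and 0.08 ± 0.05 after recovery.

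Among the E2s of ubiquitin-like proteins, all 3 passed in corn oil rats. Ube2f, which carries NEDD8 to cullin ligases, had values of 7.60 to 8.63 (median 7.91) in DBCP recovery rats, 7.57 to 8.44 (median 7.98) in corn oil recovery rats, 7.27 to 8.90 (median 7.89) in DBCP rats and 7.33 to 8.14 (median 7.74) in corn oil rats. At the end of exposure 19 of 20 DBCP arrays lay above the corn oil mean, though the DBCP difference of 0.28 ± 0.09 did not pass. Over time Ube2f stood at -0.09 ± 0.09 in DBCP rats and rose by 0.24 ± 0.09 in corn oil rats (adjusted p = 0.0357).

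Ube2z is loaded by the activating enzyme Uba6 and carries ubiquitin and FAT10. Its values were 7.26 to 8.69 (median 7.78) in DBCP recovery rats, 7.37 to 8.44 (median 7.93) in corn oil recovery rats, 7.17 to 9.01 (median 7.67) in DBCP rats and 6.96 to 8.25 (median 7.47) in corn oil rats. The difference in DBCP rats was 0.09 ± 0.11, while in corn oil rats Ube2z rose by 0.38 ± 0.11 (1.30-fold, adjusted p = 0.00747), with 16 of 19 recovery arrays above the corn oil mean. Ube2l6, which carries the interferon-induced modifier ISG15, had values of 5.73 to 6.40 (median 6.07) in DBCP recovery rats, 5.71 to 6.19 (median 6.07) in corn oil recovery rats, 6.01 to 6.52 (median 6.27) in DBCP rats and 5.94 to 6.43 (median 6.18) in corn oil rats. Ube2l6 fell by 0.16 ± 0.05 in both treatments, with adjusted p-values of 0.0186 in DBCP rats and 0.0135 in corn oil rats, and was below the median of every array.

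Of the other ubiquitin E2s, 3 rose and 1 fell in corn oil rats. Ube2w, which attaches ubiquitin to the amino terminus of proteins, had values of 6.34 to 8.78 (median 7.38) in DBCP recovery rats, 6.60 to 8.49 (median 7.57) in corn oil recovery rats, 6.31 to 7.96 (median 7.29) in DBCP rats and 6.42 to 8.11 (median 7.25) in corn oil rats. It stood at 0.16 ± 0.15 in DBCP rats and rose by 0.42 ± 0.15 in corn oil rats (adjusted p = 0.0314), with 16 of 19 recovery arrays above the corn oil mean. Its SD within groups, between 0.45 and 0.52, was wider than these differences.

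Ube2q1 had values of 8.07 to 8.99 (median 8.50) in DBCP recovery rats, 8.06 to 9.03 (median 8.52) in corn oil recovery rats, 7.90 to 9.04 (median 8.37) in DBCP rats and 7.72 to 8.55 (median 8.15) in corn oil rats. Its difference in DBCP rats was 0.16 ± 0.08 (adjusted p = 0.176) and its rise in corn oil rats 0.33 ± 0.08 (adjusted p = 0.00127), with 17 of 19 recovery arrays above the corn oil mean. Ube2l3, which serves ligases that take ubiquitin onto a cysteine of their own, had values of 8.05 to 9.06 (median 8.59) in DBCP recovery rats, 8.29 to 9.11 (median 8.57) in corn oil recovery rats, 7.97 to 8.95 (median 8.56) in DBCP rats and 8.07 to 8.73 (median 8.36) in corn oil rats. Ube2l3 stood at 0.01 ± 0.07 in DBCP rats and rose by 0.24 ± 0.07 in corn oil rats (adjusted p = 0.00787), with 16 of 19 recovery arrays above the corn oil mean.

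Ube2q2l had values of 6.17 to 6.85 (median 6.57) in DBCP recovery rats, 6.13 to 6.70 (median 6.53) in corn oil recovery rats, 6.27 to 6.99 (median 6.59) in DBCP rats and 6.32 to 7.03 (median 6.70) in corn oil rats. All 19 corn oil recovery arrays were below the corn oil mean, with overlapping ranges. Ube2q2l stood at -0.05 ± 0.06 in DBCP rats and fell by 0.19 ± 0.06 in corn oil rats (adjusted p = 0.0149). Ube2k, an E2 that extends chains for degradation, passed in neither comparison, at -0.20 ± 0.11 in DBCP rats and 0.04 ± 0.11 in corn oil rats. The anaphase-promoting complex E2s, Ube2c, which starts chains on mitotic targets, and Ube2s, which extends them, also passed in neither: Ube2c stood at -0.10 ± 0.06 and -0.02 ± 0.06, and Ube2s at -0.15 ± 0.08 and -0.02 ± 0.08.

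How each member moved with the sperm and the leukocyte marker levels was read within groups. Whether these levels follow the cells of a sample or another difference between arrays was not tested. A slope is the change in a member's log2 value per 1 log2 of the sperm or the leukocyte marker level, with the group means taken out, over 78 arrays. On the sperm level 15 members had a slope above 0 and 3 below 0 at an adjusted p under 0.05 (limma), against 16.5% and 41.3% of all probe sets (57.8% in either direction). On the leukocyte level 15 were above and 1 below, against 19.4% and 36.3% (55.7% in either direction). The median slope over members was 0.25 on the sperm level, against -0.09 over all probe sets, and 0.42 on the leukocyte level, against -0.12.

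The steepest slopes on the sperm level belonged to members of the endoplasmic reticulum group. Ube2j1 had 1.32 ± 0.06 and Ube2g2 1.21 ± 0.07, followed by Ube2w (0.78 ± 0.13), Ube2d2b (0.73 ± 0.06) and Ube2n (0.69 ± 0.08). Of these, Ube2j1 and Ube2d2b did not pass on the leukocyte level, at 0.27 ± 0.26 and -0.16 ± 0.16, nor did Ube2g2 at 0.43 ± 0.24. With both levels in 1 fit the leukocyte slope of Ube2d2b passed, at -0.30 ± 0.09. Those of Ube2j1 (0.02 ± 0.10) and Ube2g2 (0.21 ± 0.11) again did not. Ube2q2l, which fell in corn oil rats, had no passing slope on the sperm level (-0.08 ± 0.06). It was the member that passed below 0 on the leukocyte level, at -0.24 ± 0.10 (limma adjusted p = 0.0331). Without the 6 arrays of low weight that slope did not pass, at -0.21 ± 0.10.

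On the leukocyte level the steepest slopes were those of Ube2w (1.25 ± 0.21), Ube2d3 (0.91 ± 0.15), Ube2g1 (0.86 ± 0.15), Ube2d2 (0.82 ± 0.17) and Ube2z (0.81 ± 0.16). After recovery all 5 rose in corn oil rats, and Ube2g1 was the only one of them to pass in DBCP rats. The leukocyte level was higher after recovery by about as much in both treatments. The 5 also had passing slopes above 0 on the sperm level, between 0.33 (Ube2d3) and 0.78 (Ube2w). Without the 6 arrays of low weight only Ube2w of the 5 passed on the sperm level (0.71 ± 0.16). That level was lower after recovery by 0.67 in DBCP rats and by 0.34 in corn oil rats. No interaction passed, and the cause of these rises was not tested. Ube2e3 rose in corn oil rats without a passing slope on either level, at 0.04 ± 0.06 on the sperm and -0.03 ± 0.10 on the leukocyte level. Ube2l6 fell in both treatments, with slopes of -0.05 ± 0.05 and -0.09 ± 0.08 that did not pass.

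The sperm and leukocyte levels were nearly unrelated within groups (Pearson r = 0.11 over 78 arrays, a description). Slopes on the sperm level depended on the 6 arrays of low weight: without them 9 members passed, against 14.6% of all probe sets, all above 0. Among them were Ube2j1 (1.40 ± 0.08), Ube2g2 (0.98 ± 0.08), Ube2n (0.77 ± 0.11) and Ube2d2b (0.72 ± 0.07). Among those that no longer passed were Ube2d2 (0.33 ± 0.14), Ube2d3 (0.18 ± 0.14), Ube2g1 (0.18 ± 0.13) and Ube2z (0.10 ± 0.12). On the leukocyte level 14 passed without these arrays, against 43.8%.

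With both levels as covariates in the time comparisons, 0 members passed limma's test in DBCP rats, against 1.83% of all probe sets, and 5 had an unadjusted p under 0.05 there, against 16.6%. In corn oil rats 2 rose, Ube2g1 by 0.36 and Ube2f by 0.26, against 4.87% passing in either direction, so that share was near the background. The differences of Ube2j1 then no longer passed, and those of Ube2d2b and Ube2g2 had the other sign. This fit was chosen after the data were seen, and it does not tell a change in cells from a change in RNA per cell.

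**Figure D4:**
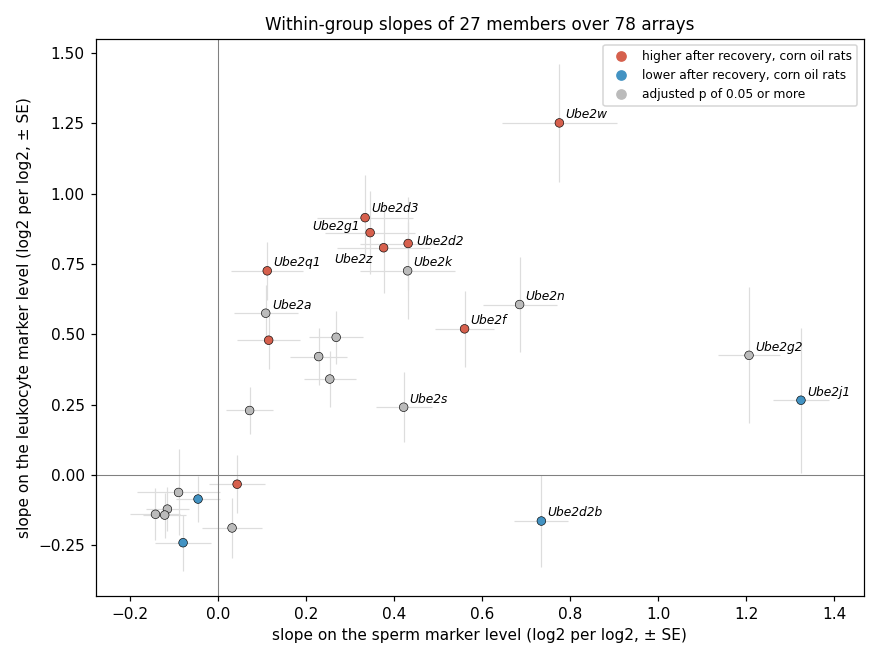
Slope of each of the 27 members on the sperm marker level (horizontal) and on the leukocyte marker level (vertical), in log2 per log2 with SE, over 78 arrays with group means taken out. Colours give the corn oil time comparison: red rose, blue fell, grey did not pass. Ube2j1 and Ube2g2 lie far to the right, and Ube2w, Ube2d3 and Ube2g1 lie high.

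**Figure D5:**
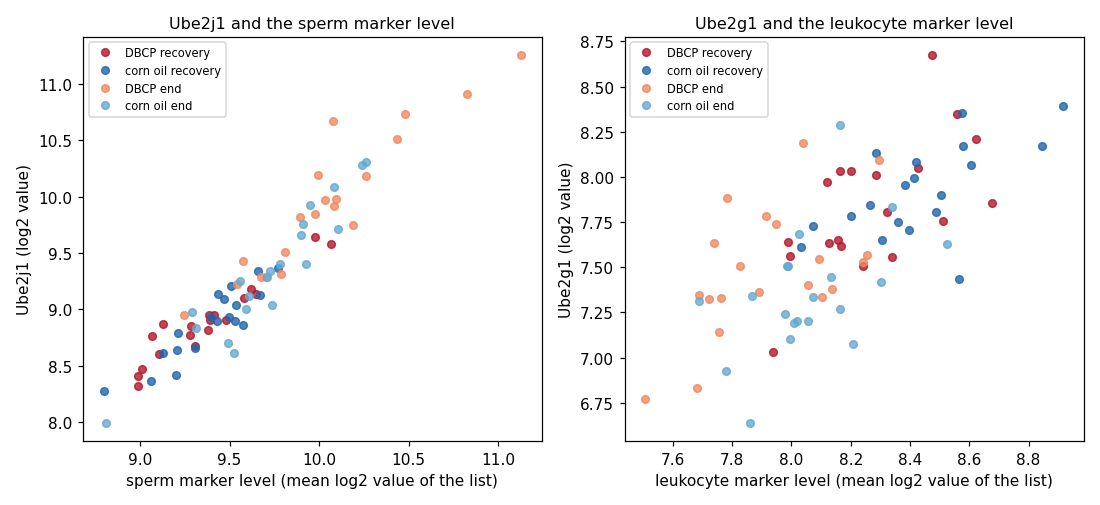
Left, the log2 value of Ube2j1 against the sperm marker level of the same array, and right, that of Ube2g1 against the leukocyte marker level, with 1 point per array coloured by group. Ube2j1 climbs with the sperm level within each group (slope 1.32), and the highest points are DBCP arrays. The Ube2g1 points scatter more (slope 0.86).

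Other genes of the pathway were read from lists of activating enzymes, modifiers, E2-fold proteins with other names, ligases and deubiquitinating enzymes. In the DBCP comparisons and the interaction 0 members of these lists passed. Of the 9 E1 genes 3 rose and 0 fell after recovery in DBCP rats, and 5 rose and 1 fell in corn oil rats, where 7.28% and 6.19% of all probe sets rose and fell in DBCP rats and 11.5% and 12.8% in corn oil rats. The same shares apply to the lists that follow. Uba3, which activates NEDD8, rose by 0.27 ± 0.08 in DBCP rats and by 0.44 ± 0.08 in corn oil rats, and Uba6, which loads Ube2z, by 0.48 ± 0.08 and 0.41 ± 0.08. Uba1, the main activating enzyme of ubiquitin, also rose by 0.38 ± 0.08 in corn oil rats, and Uba7, which activates ISG15, fell there by 0.18 ± 0.05.

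Of 12 modifier genes 1 rose and 1 fell in DBCP rats, and 5 rose and 0 fell in corn oil rats. Sumo2, a small modifier of nuclear proteins, rose in both, by 0.26 ± 0.09 and 0.45 ± 0.09. In DBCP rats 0 modifiers rose with array median centring, with array weights, in the groups compared alone or without the low-weight arrays. The call of Sumo2 there thus depended on the fit. Gabarap, an autophagy modifier, fell by 0.44 ± 0.11 in DBCP rats. Of the 6 E2-fold proteins with other names 1 rose and 1 fell in DBCP rats, and 2 rose and 1 fell in corn oil rats. Atg3, the E2 of autophagy modifiers, rose by 0.23 ± 0.07 and 0.34 ± 0.07, and Cdc34, an E2 of cullin ligases, fell by 0.23 ± 0.04 and 0.14 ± 0.04.

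Of 34 ligases 1 rose and 7 fell in DBCP rats, and 7 rose and 4 fell in corn oil rats. Marchf10, a ligase known from rat spermatids, fell by 0.95 ± 0.14 in DBCP rats and by 0.57 ± 0.14 in corn oil rats. The cullin scaffold Cul1 rose by 0.28 ± 0.08 and 0.42 ± 0.08, and Cul3 fell by 0.51 ± 0.15 in DBCP rats. Of 18 deubiquitinating enzymes 4 rose and 5 fell in DBCP rats, and 6 rose and 1 fell in corn oil rats. Otub2 fell by 1.00 ± 0.17 and 0.46 ± 0.17, and Usp9x, which removes ubiquitin from many proteins, rose by 0.41 ± 0.10 and 0.60 ± 0.10.

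For DBCP at the end of exposure the smallest p-values of the lists belonged to Uchl1 (0.34 ± 0.08) and Uchl5 (0.57 ± 0.14), deubiquitinating enzymes, and Gabarap (0.44 ± 0.11), with adjusted p-values of 0.12. Among ligases they were those of Marchf10 (0.43 ± 0.13) and Rnf4 (0.26 ± 0.09), with adjusted p-values of 0.178 and 0.189, and among E1 genes that of Atg7, which activates autophagy modifiers, was 0.431 at a difference of 0.10 ± 0.05. None of these passed.

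The time counts of these lists moved with the fit. With both marker levels as covariates the E1 genes passing numbered 1 in DBCP rats and 1 in corn oil rats, the modifiers 0 and 1, the E2-fold proteins 0 and 1, the ligases 0 and 3, and the deubiquitinating enzymes 3 and 4. In replicates 11 to 20 alone the ligases numbered 3 and 0, the deubiquitinating enzymes 3 and 1, the modifiers 1 and 0, and the other lists 0 in both treatments.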

How the data were processed

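RNA of 78 rat sperm samples was read, 1 array per sample. The values are log2 intensities per probe set, deposited by the authors in 1 table. The submitters' processing notes name limma without a version. How background, normalization and summarisation were handled was not stated in the labels. No further scaling was applied. Gene names are those of the platform annotation, which leaves 13581 of 29214 probe sets unnamed. The 4 groups were fitted together in limma 3.58.1 (lmFit and eBayes; R 4.3.3), and 5 contrasts were drawn. Benjamini-Hochberg adjustment ran over 29214 probe sets, with a threshold of 0.05. All adjusted p-values are from such fits. The contrasts share arrays: each group enters 2 of the 4 pairwise ones. Every member is accounted for. Values by group are given for passing members (at most 12 of largest difference), the 5 of smallest p where under 5 passed, and Ube2a, Ube2b, Ube2j1 and Ube2n; a further gene of that rule is not reported here. Of each pathway list at most 4 genes of largest difference are named per comparison. The members, roles and lists were chosen with earlier results of these data known, and the slopes on marker levels and the fits without low-weight arrays or with covariates were partly added after seeing the data. The fit and the slopes were tested on simulated data. Alternatives are listed in the closing section. Precision is limited by the number of arrays, with a median SE over members of 0.07 for DBCP when exposure ended.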

Additional observations from a re-analysis of the deposited data

How the results depend on the processing

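Counts of passing members were recomputed with quantile normalization, centring on the array median, array weights, a filter on dim probe sets, a trended and robust variance prior, the groups of a comparison alone, named genes alone, the replicate number or its sets (1 to 10, 11 to 20) as a block, each set alone, without the 6 arrays of low weight and with both marker levels as covariates. The last 2 were chosen after seeing the data. For DBCP and the interaction 0 members passed in each of these fits and with any array left out. Over time the count of 6 in DBCP rats became 1 in replicates 11 to 20 alone and 0 with the covariates, and the count of 13 in corn oil rats became 0 and 2. With any 1 array left out the counts were 6 to 7 in DBCP rats and 10 to 13 in corn oil rats. With the replicate block they were 6 and 11. Deviations of same-numbered samples had r over 0.1 in 9 of 20, 6 of 18, 5 of 19 and 6 of 19 pairs. The median r was 0.06, -0.03, -0.08 and -0.06. Samples of different number were not compared in this way, so whether the numbers pair samples cannot be told. Passing slopes on the sperm level numbered 9 without the low-weight arrays, against 18. Centring on the array median turned the share of rises among all passing probe sets in corn oil rats to 63.5%, against 47.4%. Among the log2 differences of named members in these settings, 655 kept direction and side of the threshold and 31 changed sign. Of the others 40 lost and 3 gained a call. The 655 include differences that passed in neither fit. Counts, slopes and fits with 1 array left out are not among them.

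For DBCP after recovery the sign changed for Ube2a with quantile normalization (-0.0047), array weights (-0.0105) and without the low-weight arrays (-0.0188), for Ube2b with the block (0.0067) and the covariates (0.0662), and for Ube2j1 with array weights (-0.0138), in replicates 1 to 10 (-0.0492) and without the low-weight arrays (-0.0413). In the corn oil time comparison the covariates turned Ube2d2b to 0.0224, Ube2g2 to 0.208, Ube2a to -0.0479 and Ube2b to -0.0242, and replicates 11 to 20 turned Ube2a to -0.0051. In DBCP rats over time, replicates 11 to 20 turned Ube2d2 to -0.130, Ube2d3 to -0.0089, Ube2l3 to -0.137, Ube2q1 to -0.0066, Ube2w to -0.0411, Ube2z to -0.0739 and Ube2a to -0.0411. Replicates 1 to 10 turned Ube2f to 0.0183 and Ube2b to 0.0097. The covariates turned Ube2d2b to 0.103, Ube2f to 0.107, Ube2l3 to -0.105, Ube2q1 to -0.0572, Ube2g2 to 0.164 and Ube2a to -0.118. Array weights turned Ube2l3 to -0.0044 and Ube2a to -4e-04, and leaving out the low-weight arrays turned Ube2a to -2e-04. The causes were not tested. A fit on the groups of the interaction alone was not run, since all 4 groups are in it. The distance of dim probe sets from background is unknown here, which limits Ube2a, Ube2l6 and Ube2v2. It also limits Ube2t, Ube2e3, Ube2d1 and Ube2q2l, which were above the array's median on 1, 14, 18 and 24 of 78 arrays.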
